A study of Mus musculus with 5 samples.

Results

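Basophils and mast cells are granule-bearing white cells that arise in bone marrow and are armed by IgE, which they bind through a high-affinity receptor. Mcpt8 and Prss34 encode serine proteases that in the mouse are made mainly by basophils and their precursors, whereas tryptases and chymases such as Tpsb2, Cma1 and Mcpt4 mark mast cells. Cpa3 encodes carboxypeptidase A3, a granule enzyme of mast cells that basophils and early myeloid progenitors also make. Fcer1a encodes the IgE-binding chain of the receptor. Gata2 encodes a transcription factor required in blood stem cells, mast cells and basophils and also made by endothelium. Ccl3 and Ccl4 encode chemokines that many activated myeloid cells release. These 7 genes, chosen by name, were followed among the 27998 genes of 5 libraries of single cells sorted from mouse marrow.

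Of the 5 libraries, 3 came from young mice of 10 to 12 weeks (young 1, 2 and 3) and 2 from aged mice of over 20 months (aged 2 and aged 3). All mice were of the Nes-GFP strain, in which a Nestin promoter drives green fluorescent protein. Cells lacking CD45, which leukocytes display, and carrying CD31, an endothelial junction protein, had been sorted from the inner bone surface, frozen and thawed. Droplet capture then labelled the 3′ end of each transcript by cell and by molecule, so that the unit counted is the unique molecular identifier (UMI). The labels do not say how many animals a library pools, so the spread between libraries may be technical in part. The study compared the marrow endothelium of young and aged mice.

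The sorted cells were mostly not of the labelled type. Of 2116 barcodes kept, 1905 were of the B lineage, 193 formed a myeloid class in which primary neutrophil granule genes outnumbered B cell genes, and 18 held at least 4 of 8 endothelial marker genes. Young 1 stood apart from the other libraries. It held 178 of the 193 myeloid-class cells, which was 20.0% of its kept cells (95% exact binomial interval 17.4 to 22.8), and 5900751 UMIs against 935656 to 1312911 elsewhere. Young 2, young 3, aged 2 and aged 3 held 2, 5, 0 and 8 myeloid-class cells. The myeloid share differed by −6.49 percentage points between aged and young libraries, less than the spread between libraries (SD 10.8 points, n = 3 young; two-sided exact permutation p = 0.7, with 0.1 the smallest p the 5 libraries allow). Young 2 and aged 2 shared 11 cell barcodes, young 3 and aged 3 shared 9, and other pairs shared 0 to 3. None of the cells rich in basophil transcripts described here was among the shared barcodes.

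The genes lie on 6 chromosomes of GRCm38. By GENCODE M21, Mcpt8 spans 56082166 to 56085273 on the minus strand of chromosome 14, Prss34 spans 25298394 to 25300165 on the plus strand of chromosome 17, Cpa3 spans 20215620 to 20242181 on the minus strand of chromosome 3, and Fcer1a spans 173221284 to 173227214 on the minus strand of chromosome 1. Gata2 spans 88193891 to 88207032 on the plus strand of chromosome 6. Ccl3 (83647844 to 83649355, minus strand) and Ccl4 (83662584 to 83664683, plus strand) are neighbours on chromosome 11 with 13228 bases between them and point away from each other.

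The stretches before the starts of Mcpt8, Prss34, Cpa3 and Fcer1a are shown because UMIs of these 4 genes were found in the same few cells as those of Gata2, whose protein binds GATA words. The word AGATAA or AGATAG, and the word TGATAA or TGATAG, was searched on both strands in the 250 bases before each RefSeq start (GRCm38.p6), and matches are in capitals. The Mcpt8 stretch ends where the GENCODE gene begins. Sequences run 5′ to 3′ in the direction of the gene.
Mcpt8, chr14:56085274-56085447, minus strand: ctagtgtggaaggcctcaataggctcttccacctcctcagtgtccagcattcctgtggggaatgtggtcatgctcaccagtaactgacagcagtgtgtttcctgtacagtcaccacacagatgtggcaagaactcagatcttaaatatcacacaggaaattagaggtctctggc
Prss34, chr17:25298144-25298393, plus strand: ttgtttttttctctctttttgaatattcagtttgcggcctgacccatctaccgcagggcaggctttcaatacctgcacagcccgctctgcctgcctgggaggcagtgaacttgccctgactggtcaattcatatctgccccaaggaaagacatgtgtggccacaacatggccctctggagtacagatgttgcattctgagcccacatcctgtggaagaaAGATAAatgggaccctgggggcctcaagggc
Cpa3, chr3:20242182-20242431, minus strand: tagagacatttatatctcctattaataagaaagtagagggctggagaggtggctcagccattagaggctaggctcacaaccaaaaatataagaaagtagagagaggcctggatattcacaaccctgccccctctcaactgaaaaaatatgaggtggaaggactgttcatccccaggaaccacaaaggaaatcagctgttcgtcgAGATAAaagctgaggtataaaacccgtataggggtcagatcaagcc
Fcer1a, chr1:173227230-173227479, minus strand: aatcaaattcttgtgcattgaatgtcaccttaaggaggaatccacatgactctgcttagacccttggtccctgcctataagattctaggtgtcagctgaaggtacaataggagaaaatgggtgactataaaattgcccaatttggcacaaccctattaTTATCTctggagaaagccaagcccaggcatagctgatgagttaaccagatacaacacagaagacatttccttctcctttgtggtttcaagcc

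Prss34, Cpa3 and Fcer1a each held 1 match, all of the word AGATAA, which began 31, 46 and 92 bases before the start, the last on the opposite strand. Mcpt8, Gata2 and Ccl3 held none of the 4 words in their 250 bases, and Ccl4 had no entry. At least 1 match was present in 26.5% of 32851 mouse promoters of that length, so a match in 3 of 6 genes is a description of these letters only.

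Transcripts of all 7 genes came almost wholly from young 1 and aged 3. Mcpt8 gave 1151, 0 and 1 UMIs in the kept cells of young 1, 2 and 3, and 0 and 212 in aged 2 and 3. Prss34 gave 1262, 0 and 0 in young 1, 2 and 3, with 0 and 311 in aged 2 and 3. Both proteases were thus high in 1 library of each age and near or at 0 in the other 3, and the age groups overlapped. Cpa3 gave 137 UMIs in young 1, 15 in aged 3 and 0 elsewhere. Fcer1a gave 40 in young 1, 10 in aged 3 and 0 elsewhere. The granule enzyme and the IgE receptor chain therefore followed the same 2 libraries. A count of 0 in young 2, young 3 and aged 2 allows up to 3.56, 4.02 and 3.15 counts per 1000000 UMIs (CPM; 3 counts, counting error only).

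The other 3 genes were also found at low counts outside these 2 libraries. Gata2 gave 68, 3 and 2 UMIs in young 1, 2 and 3 and 0 and 19 in aged 2 and 3. For Ccl3 the young counts were 566, 1 and 1 and the aged counts 0 and 43. For Ccl4 they were 676, 4 and 3, then 0 and 23. Aged 2 held no UMI of any of the 7 genes in 282 cells, which for each gene allows a share of up to 1.06% of cells with a UMI.

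**Figure D1:**
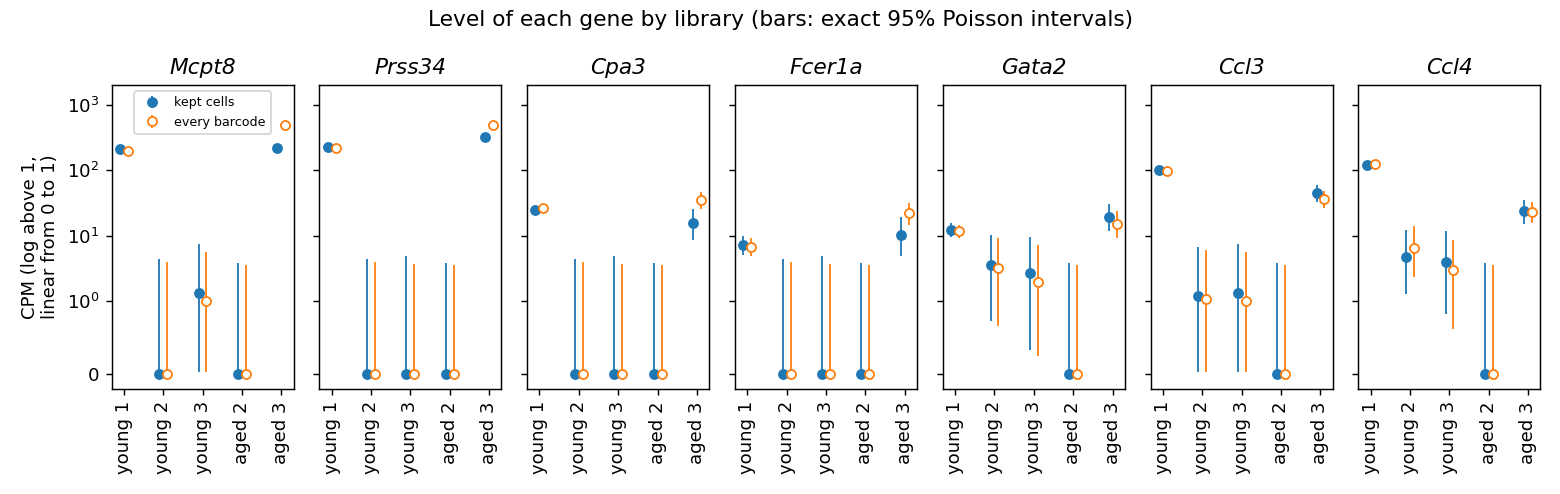
CPM of each gene (y axis, logarithmic above 1 and linear from 0 to 1) in each of the 5 libraries (x axis). Filled points are the kept cells, open points every deposited barcode, and bars are exact 95% Poisson intervals, which cover counting error only. Mcpt8 and Prss34 lie above 200 CPM in the kept cells of young 1 and aged 3 and near or at 0 in the other 3 libraries.

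On the CPM scale in kept cells, Mcpt8 was at 206.9 in young 1 and 218.9 in aged 3, and Prss34 at 226.9 and 321.1. With all kept cells of a library summed, the edgeR quasi-likelihood test of aged against young called 0 of 7838 genes at a Benjamini-Hochberg adjusted p under 0.05, a background of 0%, with 128 genes at an unadjusted p under 0.05 (DESeq2 also called 0, with 106). Fcer1a did not pass the filter on low counts, so 6 of the 7 members were tested, and none was called. The log2 fold change was 0.35 for Mcpt8 (SE 1.95), 0.78 for Prss34 (SE 2.03), 0.24 for Gata2 (SE 1.18), −0.69 for Cpa3 (SE 1.60), −1.04 for Ccl3 (SE 1.70) and −2.22 for Ccl4 (SE 1.65), with adjusted p between 0.997 and 0.999 in edgeR. Every one of these changes except that of Ccl4 was smaller than its standard error. For none of the 6 did both aged libraries lie above all the young ones or both below them, as they did for 16.1% of the tested genes. Without young 1 neither Mcpt8 nor Prss34 passed the filter on low counts, so the fit gave no value for them. Without aged 2 their log2 fold changes were 1.37 and 1.81, and without aged 3 the remaining aged library held 0 UMIs of both.

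Within a library the proteases sat in very few cells. A sum of at least 10 UMIs of Mcpt8 and Prss34 marked 10 cells of young 1 and 1 of aged 3, called high cells here, and 1 further barcode of aged 3 that missed the minimum of 500 detected genes with 498. The limit was chosen after the values were seen and marks a range of counts, not a type: the 2 cells just inside it held 20 and 28 UMIs of the pair and the 2 just outside held 6 and 5. In young 1 the 10 high cells were 10 of 890 cells. They held 91.9% of the library's Mcpt8 UMIs, 96.2% of Prss34, 97.5% of Fcer1a, 77.9% of Gata2 and 67.2% of Cpa3, but only 48.1% of Ccl3 and 47.0% of Ccl4. For Mcpt8 and Prss34 these shares follow from the limit itself, whereas the other 5 genes were not used to set it. All 11 high cells lay in the myeloid class, with the clusters made without these genes, and none was called a doublet. That class took in every kept cell outside the B-lineage clusters except the 18 endothelial-like ones. The placement therefore sets the high cells apart from those 2 groups only.

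**Figure D2:**
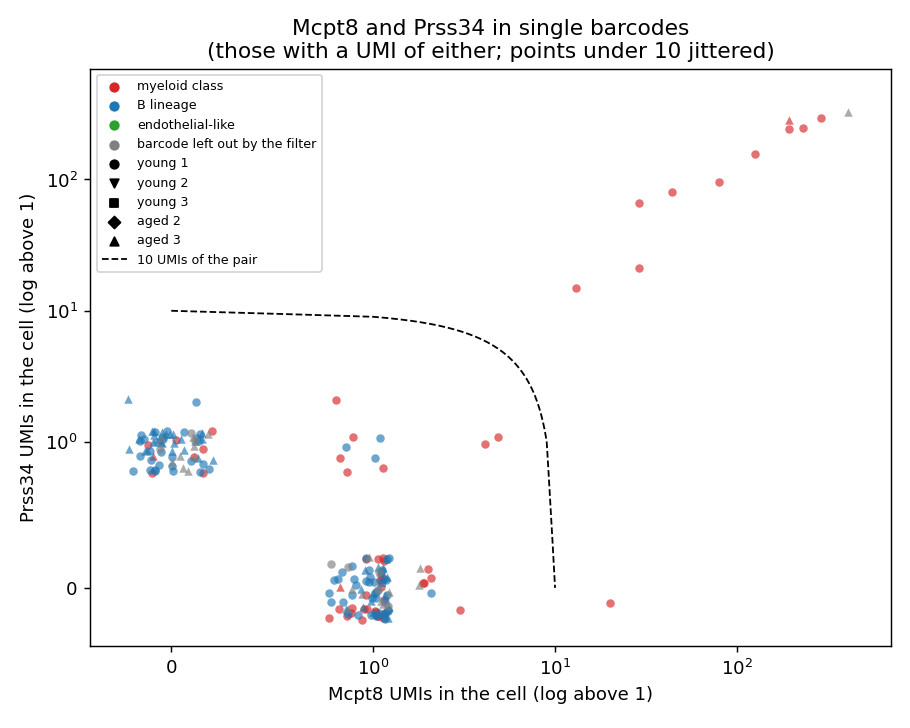
Mcpt8 UMIs (x axis) against Prss34 UMIs (y axis) in every barcode with a UMI of either gene, both axes logarithmic above 1, with points under 10 spread at random for sight. Colour gives the class of the cell, shape the library, and the dashed line 10 UMIs of the pair. All but 1 of the 12 barcodes beyond the line hold 13 or more UMIs of each gene, and the other holds 20 of Mcpt8 and none of Prss34.

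The high cells formed a graded series. In young 1 the Mcpt8 counts were 292, 232, 193, 126, 80, 44, 29, 29, 20 and 13, and the single kept cell of aged 3 held 194. The 6 highest of the 11 by the sum of the pair held 175 to 585 UMIs of it, and the 5 lowest held 20 to 125. As a share of all UMIs in the cell, Mcpt8 and Prss34 together ranged from 0.208% to 16.1%. The upper 6 had a median of 1353 detected genes and 4297 UMIs, against 2739 genes and 7907 UMIs in the lower 5, so the cells with fewer genes were also the shallower ones. In the barcode of aged 3 that missed the filter, 409 Mcpt8 and 326 Prss34 UMIs made up 37.9% of its 1938 UMIs.

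Granule and receptor genes of the same lineage were found together in these cells. Cpa3 was present in 11 of 11 high cells, with 1 to 17 UMIs. Gata2 was also present in 11 of 11, with 1 to 15 UMIs. Fcer1a was present in 9 of 11, with a highest count of 20. The 9 myeloid-class cells of young 1 with a UMI of Fcer1a all held Mcpt8, Cpa3, Gata2 and Ctsg as well. Ccl3 was present in 10 and Ccl4 in 9 of the 11 high cells.

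Of the 32 other genes on the basophil and mast cell list, 22 were detected in the 10 high cells of young 1 and 10 were not. Only some of the 32 are named here, and those named are set out as 3 kinds. Cyp11a1, a steroid-synthesis enzyme, was found in 7 of the 10 high cells and in 0 of 168 other myeloid-class cells. Cd200r3, an activating receptor of basophils and mast cells, was found in 6 and 0, Il4, a cytokine that basophils release, in 4 and 0, and Alox5, which starts leukotriene synthesis, in 7 and 1. Ms4a2, the beta chain of the IgE receptor, was found in 9 of 10 high cells and 4 of 168 others, Gzmb, a granule protease, in 7 and 2, and Slc18a2, the transporter that loads amines into granules, in 7 and 8. A second kind was shared with the rest of the myeloid class. Hdc, the histamine-making enzyme, was in 10 of 10 high cells and in 36 of 168 others, and Fcer1g, the signalling chain that other Fc receptors also use, in 10 of 10 and 133 of 168. The third kind comprised mast cell genes. Tpsb2, Tpsab1, Cma1, Mcpt4, Mcpt1, Mcpt2 and Mrgprb2 had no UMI in any of the 10 high cells, the 168 others or the 705 B-lineage cells. Kit, the stem cell factor receptor kept by mast cells, was in 1 of 10 high cells with 3 UMIs and in 58 of 168 others. The median depth was 5394.5 UMIs in the high cells and 9948 in the others, so the lower detection in the others was not accompanied by lower depth. The lower detection of Kit in the high cells was accompanied by lower depth.

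**Figure D3:**
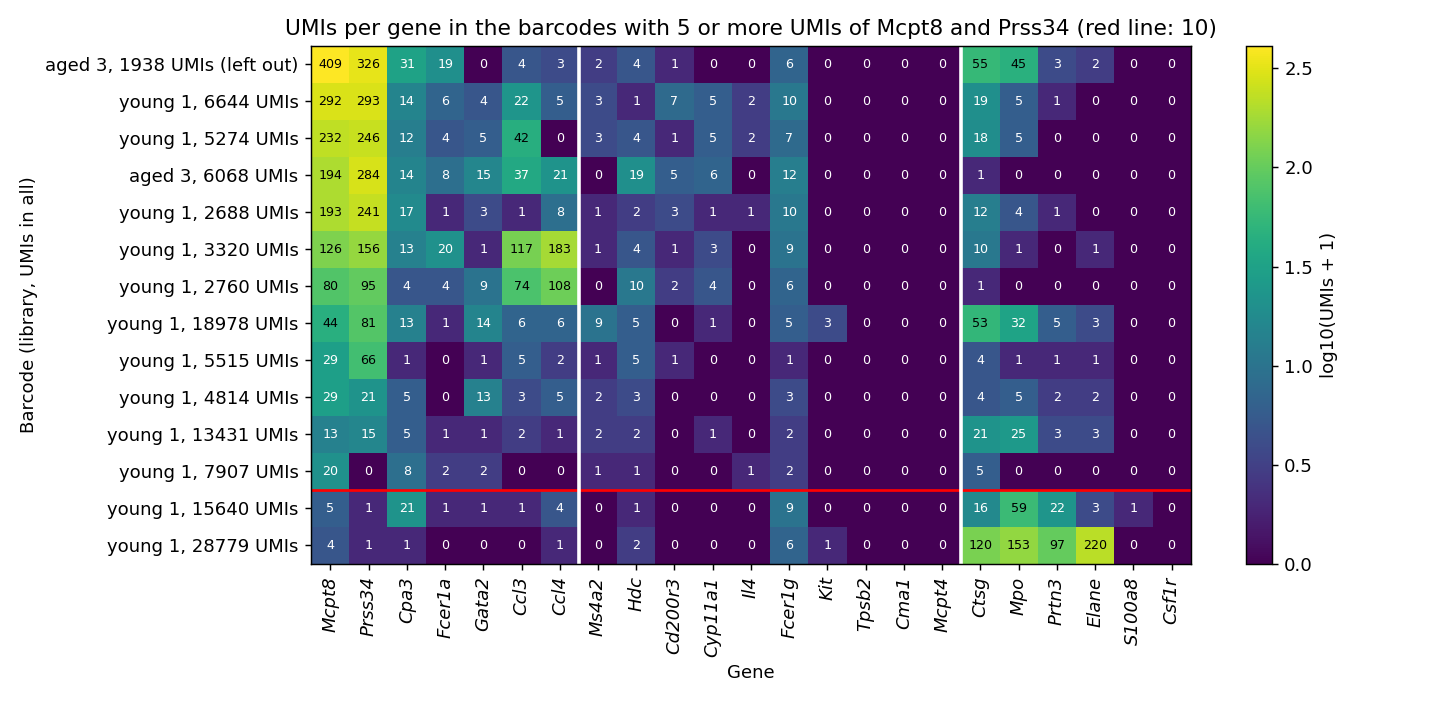
UMIs of each gene (columns) in the 14 barcodes with 5 or more UMIs of Mcpt8 and Prss34 (rows, from highest to lowest sum, labelled by library and UMIs in all), coloured by log10(UMIs + 1). White lines part the 7 genes, other basophil and mast cell genes, and neutrophil and monocyte genes, and the red line parts cells with 10 or more. Cpa3 is present in all 14 rows, while Tpsb2, Cma1 and Mcpt4 are at 0 in every row.

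Primary neutrophil granule genes were detected in the high cells, and later granule genes mostly were not. Ctsg, encoding cathepsin G, was found in 10 of 10 high cells of young 1 with 147 UMIs, against 124 of 168 other myeloid-class cells. Mpo, encoding myeloperoxidase, was found in 8 of 10 high cells with 78 UMIs, Prtn3, encoding proteinase 3, in 6 with 13 UMIs, and Elane, encoding neutrophil elastase, in 5 with 10 UMIs. The same 3 genes were found in 141, 137 and 113 of the 168 others, with 4729, 5785 and 6633 UMIs. The primary granule list stood at 4094 CPM in the high cells and 11770 in the others. S100a8, S100a9, Camp, Ngp and Ltf, made by maturing neutrophils, had no UMI in the high cells. Of 11 genes on the secondary and later granule list, Lcn2 alone was detected there, with 2 UMIs in 1 cell. Csf1r, Ccr2 and Cd68, of the 11 monocyte genes, were also at 0, and 6 of the 11 were not detected. Of 8 endothelial genes 7 were at 0, and Pecam1, which encodes the sorted antigen CD31, was found in 5 high cells with 9 UMIs. All 7 macrophage genes and all 8 measured T and NK cell genes were at 0, and of 9 eosinophil genes only Prg3 and Siglecf were detected, with 3 UMIs and 1 UMI.

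B cell transcripts were also found in the high cells. Vpreb3, a gene of B cell precursors, was found in 5 of 10 high cells and Cd79b, a signalling chain of the B cell receptor, in 7, and the B cell list stood at 1206 CPM there, against 8438 in B-lineage cells and 620 in the other myeloid-class cells. It ranged from 0 to 5185 CPM between the 10 high cells, and its part in the results was not tested. The high cell with 7907 UMIs, with 20 of Mcpt8 and 0 of Prss34, held 17 of Ebf1 and 4 of Cd79a, both on that list. Ebf1 gave at most 6 UMIs in any other high cell.

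Mpo and Ctsg were uneven among the high cells. In young 1 the cell with 18978 UMIs held 125 UMIs of the protease pair, 53 of Ctsg and 32 of Mpo, and the cell with 13431 UMIs held 28 of the pair, 21 of Ctsg and 25 of Mpo. The aged 3 cell held 478 of the pair, 1 of Ctsg and 0 of Mpo, and the left-out barcode of aged 3 held 55 of Ctsg and 45 of Mpo. These counts came from barcodes of unequal depth, and Mpo gave at most 5 UMIs in the upper 6 kept cells. On the CPM scale the primary granule list ranged from 362 to 8929 in the upper 6 and from 632 to 5427 in the lower 5. Low and high levels of the list thus occurred at both ends of the protease range. Cyp11a1 was found in 6 of the 6 upper cells and 2 of the 5 lower ones. Cd200r3 was found in 6 of 6 and 1 of 5, and Cd34, a progenitor surface gene, in 0 of 6 and 4 of 5. The upper and lower cells were parted after their values were seen, and the lower ones were deeper.

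Cpa3 had a second place outside the high cells. In young 1, 43 of its UMIs lay in 10 of the 168 other myeloid-class cells, which was 22.5 CPM (95% Poisson interval 16.3 to 30.3), against 0.563 (0.068 to 2.03) in B-lineage cells. A single cell with 15640 UMIs held 21 of the 43, a higher count than in any kept high cell. For its depth this was 1343 CPM, within the 181 to 6324 CPM of the kept high cells. It also held 59 UMIs of Mpo, 22 of Prtn3, 16 of Ctsg, 5 of Mcpt8 and 1 each of Prss34, Gata2 and Fcer1a. Its 6 UMIs of the protease pair placed it just under the limit for high cells. Another cell with 11020 UMIs held 5 UMIs of Cpa3 with 5 of Hdc, 2 of Ms4a2 and 25 of Mpo. A pair of barcodes left out for 22.2% and 28.0% mitochondrial UMIs held 9 and 7 UMIs of Cpa3, none of Mcpt8 or Prss34, and 31 and 51 of Mpo. All but 1 of the 7 barcodes with 3 or more Cpa3 UMIs outside the high cells held Mpo, with 9 to 59 UMIs, the exception having 4 of Cpa3 and 13 of Ccl4. Mpo was also found in 83.5% of the myeloid-class cells of young 1 that had no Cpa3.

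Outside the high cells Mcpt8 and Prss34 were low. In young 1, Mcpt8 was found in 35 of the 168 other myeloid-class cells (20.8%) and 44 of 705 B-lineage cells (6.24%), but at median depths of 9948 and 3733 UMIs. On the CPM scale it stood at 25.1 (18.5 to 33.3) and 12.7 (9.24 to 16.9). Prss34 was in 14 of 168 (8.33%) and 32 of 705 (4.54%), at 7.84 (4.39 to 12.9) and 9.29 CPM (6.39 to 13.04). The Prss34 intervals overlapped, so Prss34 above the level of B-lineage cells was not detectable outside the high cells. The Mcpt8 interval in the 168 cells lay above that of the B-lineage cells. Of the 48 Mcpt8 UMIs there, however, single cells under the limit, which was set after the values were seen, held 5, 4 and 3. The interval without those cells was not computed. With cells thinned to equal depth, 0.595% of the 168 and 1.28% of the 705 held Mcpt8, and the intervals overlapped. Fcer1a gave 1 UMI in the 168 cells and 0 in the 705. Gata2 gave 9 UMIs in 9 of the 168 cells, at 4.70 CPM (2.15 to 8.93), against 0.563 (0.068 to 2.03) in B-lineage cells.

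**Figure D4:**
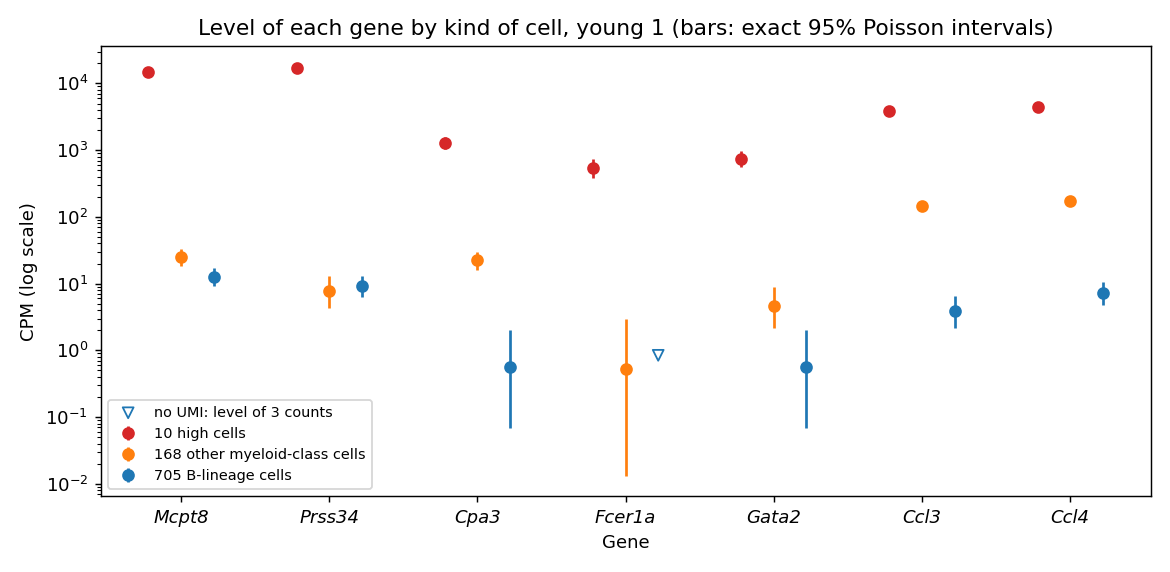
CPM (y axis, logarithmic) of each gene (x axis) in young 1, summed over the 10 high cells, the 168 other myeloid-class cells and the 705 B-lineage cells. Bars are exact 95% Poisson intervals of counting error and the open triangle is the level of 3 counts where no UMI was found. Ccl3 and Ccl4 stand at 146 and 174 CPM in the other myeloid-class cells, against 3.94 and 7.32 in the B-lineage cells.

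Many of the detections in the myeloid class depended on depth. In the 178 myeloid-class cells of young 1 a UMI of Mcpt8 was found in 25.3%, of Prss34 in 12.9%, of Cpa3 in 11.2%, of Fcer1a in 5.06%, of Gata2 in 10.7%, of Ccl3 in 41.6% and of Ccl4 in 47.2%. With every cell thinned to 1000 UMIs, and no cell too shallow for it, the same shares were 5.62%, 6.18%, 5.62%, 1.12%, 3.93%, 9.55% and 12.9%. The thinned shares in the 705 B-lineage cells were 1.28% for Mcpt8, 0.993% for Prss34 and Ccl4, 0.284% for Ccl3, 0.142% for Gata2 and 0 for Cpa3 and Fcer1a. The high cells carried most of the thinned detections of the proteases. Thinned, 9 of the 10 high cells held Mcpt8, 9 Prss34, 7 Cpa3, 2 Fcer1a, 6 Gata2, 6 Ccl3 and 5 Ccl4, and the first 2 genes had chosen these cells. In the 168 other myeloid-class cells the thinned shares were 0.595% for Mcpt8, 1.19% for Prss34, 1.79% for Cpa3, 0 for Fcer1a and 0.595% for Gata2, and their exact binomial intervals overlapped those of the B-lineage cells. For Ccl3 and Ccl4 they were 6.55% (3.31% to 11.4%) and 10.7% (6.47% to 16.4%), above the B-lineage intervals (0.0344% to 1.02% and 0.400% to 2.04%).

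Ccl3 and Ccl4 were the 2 genes spread most widely over the myeloid class. In young 1 both were found in 8 of the 10 high cells, Ccl3 alone in 1 and neither in 1. Of the 168 other myeloid-class cells, 37 held both, 28 Ccl3 alone, 39 Ccl4 alone and 64 neither. Of the 705 B-lineage cells none held both, 14 held Ccl3 and 26 held Ccl4, each with 1 UMI. The high cells held 272 UMIs of Ccl3 and 318 of Ccl4, and the 168 others held 279 and 332, so nearly equal totals came from groups of very different size. Most of the high cells' total came from 2 cells, 1 with 117 Ccl3 and 183 Ccl4 UMIs and the other with 74 and 108.

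Cells rich in these chemokines lay both among the high cells and outside them. A sum of at least 10 UMIs of Ccl3 and Ccl4 marked 18 kept cells, of which 6 were high cells and 12 were not. The richest cell outside the high cells held 61 UMIs of Ccl3 and 56 of Ccl4 with 63 of Cxcl2, a neutrophil-attracting chemokine, 12 of Tnf, an inflammatory cytokine, and 32 of Nfkbia, an inhibitor that NF-kB signalling induces. Of the 12 chemokine-rich cells outside the high cells, 6 held Tnf and 6 held Cxcl2, and of the 6 chemokine-rich high cells 0 and 1 did. Tnf had no UMI in the 10 high cells of young 1 and was found in 57 of the 168 others. Cxcl2 had none in the 10 and was found in 33 of the 168. The 10 high cells were also shallower, at a median of 5394.5 UMIs against 9948, and the part of depth in these absences was not tested. The high cell of aged 3 held 35 UMIs of Cxcl2, with 37 of Ccl3 and 21 of Ccl4. Il6, a cytokine of activated cells, gave 33 UMIs in the high cell that had the most Ccl3 and Ccl4.

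**Figure D5:**
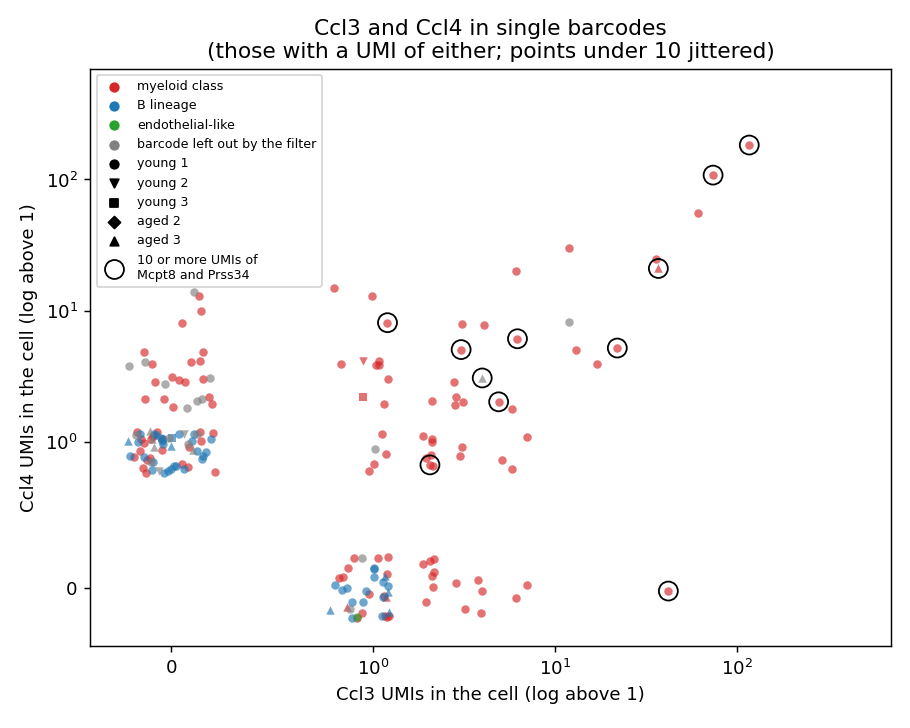
Ccl3 UMIs (x axis) against Ccl4 UMIs (y axis) in every barcode with a UMI of either gene, both axes logarithmic above 1, with points under 10 spread at random for sight. Colour gives the class, shape the library, and rings mark barcodes with 10 or more UMIs of Mcpt8 and Prss34. Ringed and unringed myeloid-class cells both reach high counts, and B-lineage cells stay at 1 UMI.

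Gata2 was also found in the endothelial-like cells. Over all kept cells it was found in 11 of 11 high cells with 68 UMIs, in 10 of 182 other myeloid-class cells with 11, in 9 of 18 endothelial-like cells with 10, and in 3 of 1905 B-lineage cells with 3. The endothelial-like cells with Gata2 numbered 3, 1, 1, 0 and 4 in young 1, 2 and 3 and aged 2 and 3. In young 2 and young 3 they gave 1 Gata2 UMI each, of 3 and 2 in those libraries. None of the 7 endothelial-like cells of young 1 and the 8 of aged 3 held a UMI of Mcpt8, Prss34, Cpa3 or Fcer1a.

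The B-lineage cells gave the background of the proteases. A UMI of Mcpt8 was found in 6.24%, 0% and 0.323% of the B-lineage cells of young 1, 2 and 3, and in 0% and 4.15% of those of aged 2 and 3. For Prss34 the young shares were 4.54%, 0% and 0% and the aged shares 0% and 6.48%. Background was thus highest in the 2 libraries that held high cells. In young 1 and aged 3, 73 of 705 and 41 of 386 B-lineage cells held a UMI of either protease, and none held more than 2 UMIs of the pair. The carriers were deeper, with a median of 5235 UMIs against 3592 in young 1 and 2643 against 1842 in aged 3. Aged minus young, the B-lineage share differed by −0.12 points for Mcpt8 and 1.73 points for Prss34, and for the 7 genes the two-sided exact permutation p lay between 0.4 and 1.0 (adjusted over the 7 genes, 1.0 for each). The B-lineage sums gave the same answer for Mcpt8, the 1 member that passed the filter, at a log2 fold change of 0.26 (SE 1.36, adjusted p 0.994 in edgeR). There 0 of 7653 genes were called, again 0%, with 159 at an unadjusted p under 0.05 (DESeq2 0 and 148).

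The B-lineage counts were also set against the counts elsewhere in the same library. In young 1, for every 100 UMIs of the gene outside the B lineage, the B-lineage cells held 4.07 UMIs of Mcpt8 (2.97 to 5.44), 2.69 of Prss34 (1.85 to 3.77), 2.54 of Ccl3 (1.39 to 4.26) and 4.0 of Ccl4 (2.61 to 5.86). For the granule genes Mpo, Elane, Prtn3 and Ctsg the same ratio was 4.55, 3.24, 2.76 and 2.67, and for S100a8 it was 1.13. The ratio was 1.48 (0.179 to 5.35) for Cpa3 and 3.03 (0.367 to 10.9) for Gata2, from 2 B-lineage UMIs each, and Fcer1a had none. The intervals of Mcpt8, Prss34, Ccl3 and Ccl4 each held the ratio of at least 1 of Mpo, Elane, Prtn3 and Ctsg. The ratio of Ccl3 itself lay below all 4. In aged 3 the ratio was 8.16 (4.67 to 13.3) for Mcpt8 and 9.12 (5.96 to 13.4) for Prss34 over kept cells, while the left-out barcode held 409 and 326 further UMIs of these genes. Over the same kept cells the ratios of S100a8, S100a9, Camp and Ngp were lower, from 1.58 to 4.14. Prtn3 stood at 8.82 (1.82 to 25.8) over 34 UMIs outside the B lineage. The ratios of Mpo and Ctsg were 133 and 75.0 over only 6 and 4 such UMIs. With the left-out barcodes, UMIs outside the B lineage rose from 196 to 616 for Mcpt8 and from 285 to 620 for Prss34. For S100a8 they rose from 1269 to 1339 and for Camp from 338 to 441. The order of these ratios therefore depends on the filter, and none was computed with the left-out barcodes.

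The genes most alike in detection were taken over all 193 myeloid-class cells by the Jaccard index, the cells with both genes divided by the cells with either. For Fcer1a they were Cyp11a1 at 0.80, Alox5 at 0.58 and Cd200r3 at 0.55. For Prss34 they were Cpa3 at 0.35, Fcer1a at 0.35 and Cyp11a1 at 0.32. For Cpa3 they were Fcer1a at 0.48, Gata2 at 0.45 and Slc18a2 at 0.42, and for Gata2 Fcer1a at 0.48, Cpa3 at 0.45 and Ms4a2 at 0.42. For Mcpt8 they were Hdc at 0.42, Agpat5 at 0.34 and Surf4 at 0.34, the last 2 found in 86 and 110 of the 193 cells. The cells with Mcpt8 had a median of 13310 UMIs, against 9398 in the whole class. For Ccl3 and Ccl4 the leading genes were Glipr1 at 0.50 and Cdk4 at 0.50, which were found in 137 and 148 of the 193 cells, so these indices rest on genes found in most of the class.

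Among the lists followed beside the members, the edgeR test of all cells called no gene in either direction. Of 32 other basophil and mast cell genes 11 passed the filter, 4 higher and 7 lower in aged libraries, with a median log2 fold change of −0.57. The 5 measured primary granule genes had a median of −5.55 and the 7 measured secondary and later granule genes −1.34, and the median over all 7838 tested genes was −0.00165. The 6 tested members had a median of −0.22. The libraries held 178 myeloid-class cells in young 1 against 0 to 8 elsewhere, and the part of this in the medians was not tested. The 10 cell cycle genes, all lower in the aged libraries, had a median of −0.99 in all cells and −1.27 in B-lineage cells, with no gene called in edgeR. In summed libraries fewer cells of a type and less RNA per cell cannot be told apart.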

How the data were processed

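The deposited values were raw UMI counts per Ensembl gene and cell barcode, 1 table per library. Cell Ranger and build mm10 were used per the submitters' processing notes, with R 3.5.2, edgeR 3.24.3 and DESeq2 1.22.2 named without a role. How the deposited barcodes were chosen is not given in the sources used here. Of 27998 identifiers 27645 matched a symbol.

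Barcodes with at least 500 detected genes, 1000 UMIs and at most 10% of UMIs from 13 mitochondrial genes were kept (2116 of 3384), with median depths of 1889.5 to 4212.5 UMIs per library. Cells were clustered (scanpy 1.11.5, 2000 variable genes, 30 components, 15 neighbours, Leiden resolution 0.8) without the members and 32 related genes. Scrublet, at an expected 2% per library, called 58 doublets, which were kept. A cluster was myeloid where primary granule UMIs outnumbered B cell UMIs. Cells there with at least 4 of 8 endothelial genes were set apart.

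Sums per library were tested with edgeR 4.0.16 (quasi-likelihood, TMM, filterByExpr, Benjamini-Hochberg, threshold 0.05; SE as the fold change over the square root of F), after tests on simulated data. Shares were compared by exact permutation over the 10 ways to choose 2 aged libraries. Intervals are exact (Clopper-Pearson or Poisson, 95%), and floors are 3 counts. Alternatives changed the tool (DESeq2 1.42.0), scaling, filters, depth, clusters, doublets and libraries. The members and lists were chosen with earlier results of these data known, and the class rule, the limit of 10 UMIs and the parting of the high cells after seeing the data. Named genes were the members, list genes with most myeloid UMIs, the most alike genes by Jaccard index, and others singled out after their values were seen.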

Additional observations from a re-analysis of the deposited data

Results flagged for a closer look

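Barcodes that the filter left out of aged 3 held 420 UMIs of Mcpt8 and 335 of Prss34, at levels above those of the left-out barcodes of every young library, where Mcpt8 gave 5, 0 and 0 UMIs and Prss34 gave 3, 0 and 0. A single barcode with 498 detected genes held 409 and 326 of them. With every deposited barcode, aged 3 stood at 481.4 UMIs of Mcpt8 and 492.0 of Prss34 per 1000000 UMIs, against 195.9 and 214.4 in young 1. The difference between the ages was not tested on left-out barcodes alone.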

How the results depend on the processing

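The clusters made with all genes or at resolution 0.5 or 1.2 left the myeloid share difference at −6.49 points. It ranged from −9.80 to −0.239 points when 1 library was left out, the last without young 1. Thinning each cell to 1000 UMIs lowered the shares of myeloid-class cells of young 1 with a UMI to 5.62% for Mcpt8, 6.18% for Prss34, 5.62% for Cpa3, 1.12% for Fcer1a, 3.93% for Gata2, 9.55% for Ccl3 and 12.9% for Ccl4. A marker gate in place of clusters, or leaving out doublets, kept all 7 within their intervals. In B-lineage cells thinning turned the aged minus young difference to 0.374 points for Mcpt8 and 0.165 for Ccl3. Leaving out 1 library gave −2.19 to 1.96 points for Mcpt8, −1.51 to 4.96 for Prss34, −0.0946 to 0.165 for Cpa3, 0 to 0.518 for Fcer1a, −0.303 to −0.142 for Gata2, −0.662 to 0.518 for Ccl3 and −1.75 to 0.0978 for Ccl4.

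Without the filter on low counts edgeR called 11 genes in all cells and 67 in B-lineage cells, against 0 and 0. DESeq2, library totals, leaving out doublets, shared barcodes (added after seeing the data) or any 1 library called 0. With the replicate block edgeR called 19 and 27 genes. The block pairs the libraries numbered 2 and 3, which the labels do not say are matched (correlation of their deviations 0.28 and 0.13 across genes, over 2 pairs), and young 1 then bears no weight on age. Under the block the log2 fold change was 7.11 for Mcpt8 (adjusted p 4.69e-06 in edgeR) and 10.90 for Prss34 (4.69e-07). It was 6.54 for Cpa3 (0.251), 3.85 for Ccl3 (0.0665), 1.30 for Gata2 (0.998) and 1.16 for Ccl4 (0.998), none of them past the threshold. Young 2, young 3 and aged 2 were at 0 or nearly so for the proteases, and 1 cell of aged 3 held most of that library's protease UMIs.

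The direction of the members in all cells turned with single libraries. Without young 2 or young 3 the log2 fold change was −0.20 and −0.21 for Mcpt8 and −0.05 and −0.07 for Gata2. Without aged 2 it was 1.37 for Mcpt8, 1.81 for Prss34, 1.31 for Gata2, 0.39 for Cpa3 and 0.011 for Ccl3, and every deposited barcode gave 0.45 for Cpa3. Without aged 3, which left aged 2 with 0 UMIs of each, the fitted values of −10.30 for Mcpt8, −10.41 for Prss34, −7.42 for Cpa3, −6.85 for Gata2 and −9.36 for Ccl3 depend on the prior count and are no bound. Without the high cells Mcpt8 was at −0.0021 (added after seeing the data). In B-lineage cells Mcpt8 was at 1.39 without aged 2, −0.17 without young 2, −0.083 without young 3 and −6.25 without aged 3. None of these passed the threshold. A limit of 5 or 20 UMIs for the protease pair gave 12 of 13 and 11 of 11 cells with both Cpa3 and Gata2, and every barcode gave 11 of 12 (all added after seeing the data).

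With 10 high cells in 1 library and 1 in another, the members could not be compared between ages within a cell type.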
